A study of Oreochromis niloticus with 16 samples.

Results

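Small RNA of the heart of a female Nile tilapia (Oreochromis niloticus) was set against small RNA of skeletal muscle, over every miRNA name in the tables. Members were chosen by tissue, as the female heart library and the 4 skeletal muscle libraries, which makes 5 of the 16 libraries of the series. All 5 came from adult fish of the Chitralada strain. The groups were heart (female), white muscle (female and male) and red muscle (female and male), with no treatment or genetic change in any of them. There is 1 heart library. Nothing in the labels says whether libraries of 1 sex came from the same fish, from separate fish or from pools. The p-values take their error from the spread among these libraries. Within each muscle type this is the spread between 1 female and 1 male library, so sex is part of it, beside any technical difference. Of 577 miRNA names in the files, 339 reached 10 reads in any of the 5 libraries, and these were compared.

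White muscle of fish is made of fast glycolytic fibres, red muscle of slow oxidative fibres, and the heart of striated cells that contract without pause. These tissues share a small group of miRNAs, often called myomiRs, which repress genes of other cell programmes and tune fibre type. The families miR-1 and miR-133 are transcribed together and occur in both heart and skeletal muscle, miR-206 is known from skeletal muscle, and miR-499 lies within a myosin gene and is known from heart and slow fibres. A dissected heart also holds endothelium, smooth muscle, fibroblasts, valves and blood, each with miRNAs of its own. Either arm of the hairpin of a miRNA, 5p or 3p, can be kept as the mature strand.

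Levels rest on divided counts, where a read with more than 1 matching locus is shared among its loci. They are given as counts per 1000000 divided reads (CPM). The divided total was 1280982 in heart and ran from 3541979 to 11517367 in muscle. Heart was thus the shallowest of the 5, and 3 reads, taken as the limit for a count of 0, equalled 2.34 CPM in heart and 0.261 to 0.847 CPM in muscle. The wider two-sided 95% interval of 0 reads reached 2.88 CPM in heart. Counting intervals below cover counting error only. At least 1 read was found for 304 names in heart and for 402 to 441 names in each muscle library.

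The tissue markers miR-499-5p and miR-206-3p followed the labels, while other names of the muscle list, given below, were mixed. miR-499-5p, the heart and slow fibre marker, stood at 42309 CPM in heart (95% interval 41950 to 42670), 372 (female) and 486 (male) CPM in white muscle, and 7531 (female) and 3313 (male) CPM in red muscle. Pairs of muscle values below are given in the same order, female first. Heart lay above all 4 muscle libraries, and both red libraries lay above both white ones. miR-206-3p, the skeletal marker, stood at 51.5 CPM in heart, 75619 and 75831 CPM in white muscle, and 4292 and 3780 CPM in red muscle. Heart lay below all 4, with a lowest muscle level 73.4 times that of heart (57.7 to 94.9 by counting error of the heart library). No name of the miR-208 family, the other myosin miRNA of the mammalian heart, is in the tables, so it was not analysed here.

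**Figure D1:**
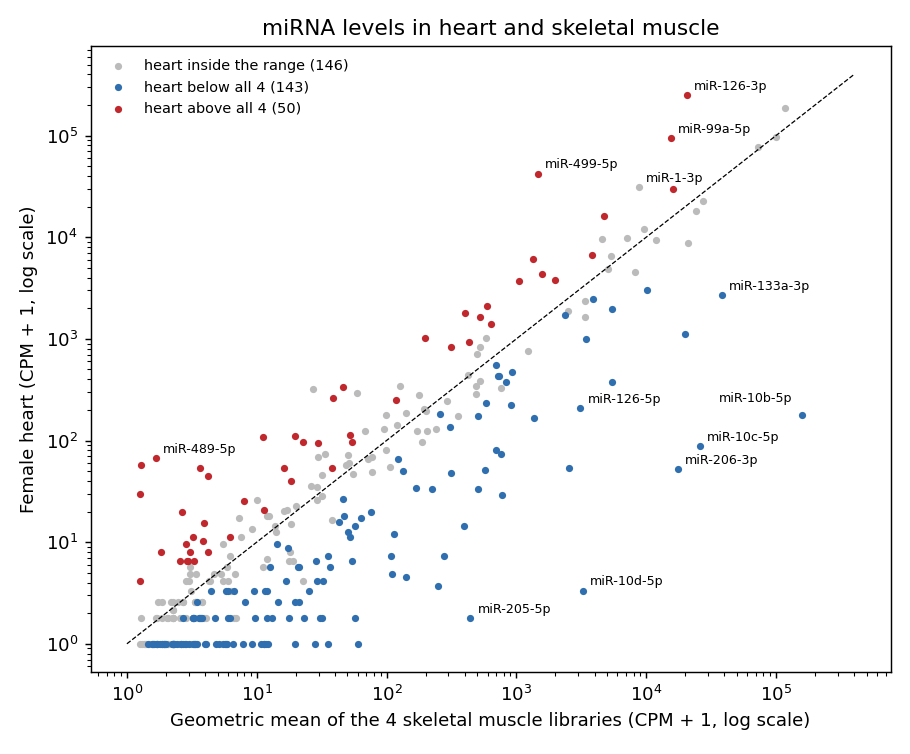
Level of each of 339 miRNA names in female heart (vertical axis) against the geometric mean of the 4 skeletal muscle libraries (horizontal axis), both as CPM plus 1 on log scales. Red points are the 50 names for which heart lay above all 4 muscle libraries, blue points the 42.2% of names for which it lay below all 4, grey points the names inside the muscle range, and the dashed line marks equal levels.

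Heart lay above all 4 muscle libraries for 50 names, which is 14.7% of those compared, and below all 4 for 42.2%. The other names lay inside the muscle range. Part of the lower count rests on names at the limit of the heart library: 73 of those below had fewer than 3 reads in heart and 48 had none. The upper 95% bound of the heart level lay under every muscle library for 70 of those below, and the lower bound lay over every muscle library for 35 of the 50. Among names that reached 100 CPM in any library, heart lay above for 23 and below for 51. By reads, the 50 names made up 46.8% of the heart library and 5.47% to 10.3% of each muscle library. Those below made up 1.90% of heart and 33.1% to 41.7% of muscle. The direction of these shares follows from how the names were sorted, and only their size is a result. A gap of at least 4-fold to the nearest muscle library was found for 10 names above (2.95%) and 31 names below (9.14%).

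The comparison was also fitted with edgeR's quasi-likelihood test on the divided counts, as heart minus the average of the muscle types, each type with equal weight. The spread comes from the 2 libraries of each muscle type alone, and the single heart library is assumed to vary like them. A fit without 1 of the muscle libraries takes its spread from the 2 libraries of the other muscle type alone. Calls lost or gained in such a fit therefore also depend on how far those 2 libraries differ. At an adjusted p under 0.05, 17 names were higher in heart (5.01%) and 19 were lower (5.60%). The median log2 fold change over all names was −0.82, and the smallest changes that passed were 2.00 upward and −3.58 downward. Of the 17, 16 lay above all 4 muscle libraries, the exception being miR-736-3p, and all 19 lower names lay below all 4. Of these 19, miR-10b-3p, miR-10d-5p, miR-130b-3p, miR-130c-3p, miR-182-5p-2, miR-184-3p, miR-184-3p-2, miR-196a-5p, miR-205-5p and miR-217-5p had fewer than 10 reads in heart. They met the read minimum only through muscle, so the lower direction was largely fixed for them. With library totals alone in place of TMM factors (trimmed mean scaling of libraries), 15 were higher and 31 lower, and the median of all names moved to −1.12. Without the male white muscle library only 4 higher and 4 lower names passed. These were 8 of the 36 calls: miR-126-3p, miR-499-5p, miR-187-3p and miR-489-5p higher, and miR-10b-5p, miR-10c-5p, miR-10d-5p and miR-206-3p lower. miR-187-3p met the read minimum only through heart, so its direction was fixed. The other 28 calls were lost in that fit, with adjusted p from 0.067 to 0.324.

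Heart put more of its reads into a few names than muscle did. The 5 most abundant names held 70.3% of the heart library, against 51.9% to 62.3% of each muscle library. In heart they were miR-126-3p (24.9%), miR-100-5p (18.6%), miR-26a-5p (9.71%), miR-99a-5p (9.47%) and let-7a-5p (7.66%). In muscle, miR-10b-5p led in male white and female red muscle, miR-26a-5p in female white muscle and miR-100-5p in male red muscle. miR-26a-5p and let-7a-5p, which most tissues express, differed little: miR-26a-5p stood at 97091 CPM in heart and 69154 to 130026 CPM in muscle, and let-7a-5p at 76645 against 56074 to 89078 CPM. Their fitted log2 differences were 0.20 ± 0.49 (SE) and 0.34 ± 0.46, and neither passed.

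**Figure D2:**
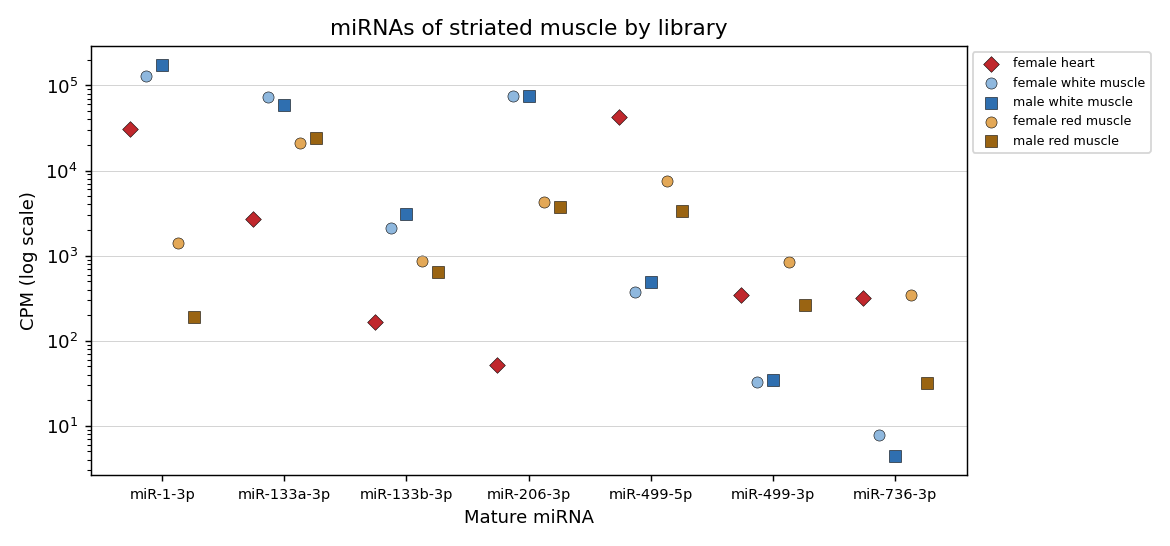
Levels of 7 striated muscle miRNAs (CPM, log scale) in each of the 5 libraries, 1 point per library. miR-499-5p is highest in heart, miR-206-3p and the miR-133 names are lowest in heart, and miR-1-3p in heart lies between white and red muscle.

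Of the 13 names of the list of skeletal and cardiac muscle miRNAs, 12 were compared. Heart lay above all 4 libraries for 2 of them, below for 6 and inside for 4, against 14.7% above and 42.2% below over all names. These shares are near those over all names. In the test 3 were higher (miR-499-5p, miR-736-5p and miR-736-3p) and 2 were lower (miR-206-3p and miR-133a-3p). Over all names 5.01% were higher and 5.60% lower in the test. The summed level of the list was 77023 CPM in heart, 281042 and 310654 CPM in white muscle, and 37041 and 32899 CPM in red muscle.

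miR-499-5p was higher in heart by 5.10 ± 0.53 on the log2 scale (edgeR, adjusted p = 0.00027). Against red muscle alone the difference was 3.37 ± 0.65 (adjusted p = 0.012) and against white muscle alone 6.83 ± 0.73 (adjusted p = 0.00035). Both of these narrower calls were lost without the male white muscle library (adjusted p = 0.098 and 0.053), and the one against red muscle also without the male red muscle library (adjusted p = 0.096). Red muscle was above white by 3.45 ± 0.60 (adjusted p = 0.0096), so the order of the levels was heart, red, white, with no overlap between libraries. The next highest of the other 11 libraries was the whole embryo at 5 days post-fertilization, at 1391 CPM. The opposite strand, miR-499-3p, did not follow that order: it stood at 341 CPM in heart, 32.5 and 34.8 CPM in white muscle, and 851 and 263 CPM in red muscle.

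miR-736, a fish miRNA placed in the muscle list, was present in heart and red muscle. miR-736-3p stood at 321 CPM in heart, 7.91 and 4.43 CPM in white muscle, and 347 and 31.9 CPM in red muscle. Heart lay beside the female red library and well above both white libraries. The log2 difference was 5.97 ± 1.21 against white muscle (edgeR, adjusted p = 0.016) and 1.32 ± 1.10 against red muscle (adjusted p = 0.49). Its 5p arm stood at 53.1 CPM in heart, 0 and 0.467 CPM in white muscle, and 33.4 and 2.43 CPM in red muscle, and heart held the highest level of the 16 libraries. Both are named because they passed the test, and not by the rule for named miRNAs. Neither call against white muscle held without the male white muscle library (adjusted p = 0.26 and 0.18), and each arm has 2 loci.

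miR-206-3p fell by 8.14 ± 0.89 on the log2 scale (edgeR, adjusted p = 0.00027), by 5.99 ± 0.82 against red muscle and by 10.30 ± 0.99 against white muscle. It passed in all 3 contrasts under each of the 10 alternative settings. The heart level rests on 66 reads. Among the other adult libraries, the eye held 1266 CPM, the female gonad 97.7 CPM, liver 47.4 CPM, the male gonad 5.35 CPM and the brains 2.16 and 7.53 CPM.

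miR-133a-3p, which is transcribed with miR-1, stood at 2703 CPM in heart. It reached 72939 and 58205 CPM in white muscle and 21279 and 24254 CPM in red muscle. Heart lay below all 4, by 3.58 ± 0.71 on the log2 scale (edgeR, adjusted p = 0.012). The 3p arm of miR-133b followed, with 165 CPM in heart, 2102 and 3095 CPM in white muscle and 854 and 639 CPM in red muscle, and a fitted log2 difference of −2.81 that did not pass. The heart level of miR-133a-3p was still the highest outside skeletal muscle and the embryos, since the adult libraries of brain, gonad, liver and eye held 38.1 to 556 CPM.

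miR-1-3p, the partner of miR-133a, behaved otherwise. It stood at 30997 CPM in heart, 128719 and 171908 CPM in white muscle, and 1405 and 189 CPM in red muscle. Heart lay inside the muscle range, because both white libraries were above it and both red libraries far below it. The log2 difference was 5.82 ± 0.86 against red muscle (edgeR, adjusted p = 0.0025) and −2.08 ± 0.90 against white muscle (adjusted p = 0.18). The call against red muscle was lost without the male white muscle library (adjusted p = 0.062) and without the male red muscle library (adjusted p = 0.051). In heart miR-1-3p was thus well above miR-133a-3p, which holds in white muscle too, while in both red libraries miR-133a-3p was the higher of the pair. Levels of different miRNAs depend on how well each ligates and amplifies, so this is a comparison of read counts.

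**Figure D3:**
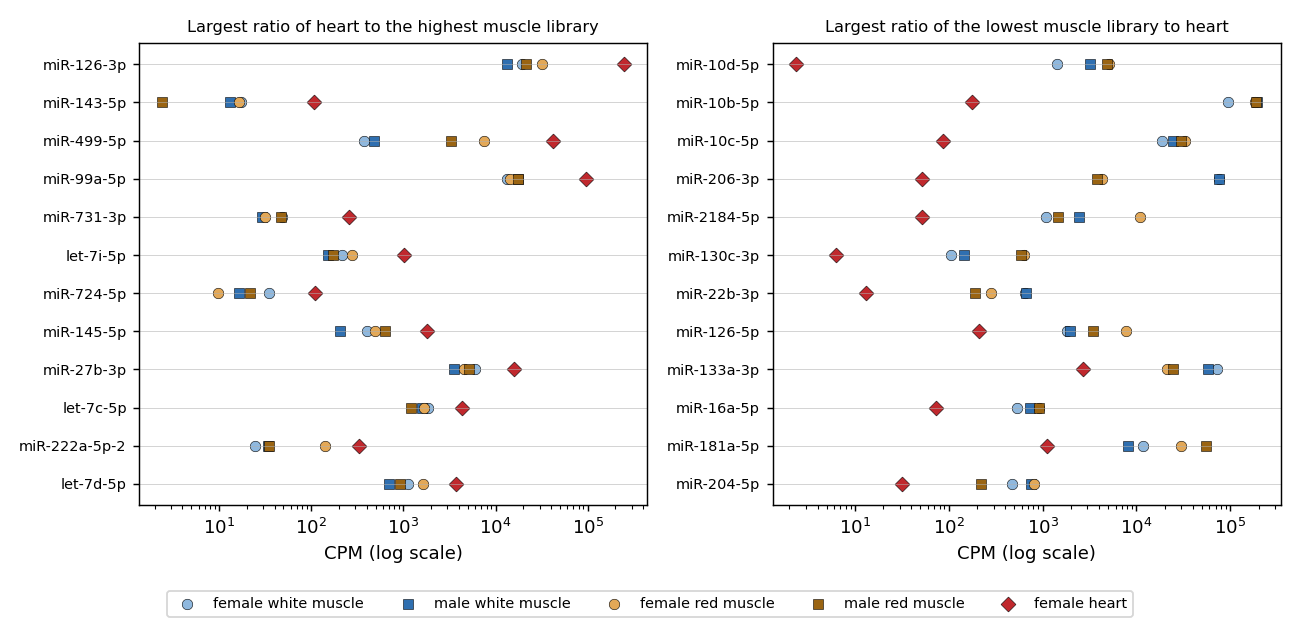
Levels (CPM, log scale) of the 12 miRNAs with the largest ratio of heart to the highest muscle library (left, at least 100 CPM in heart) and the 12 with the largest ratio of the lowest muscle library to heart (right, at least 100 CPM in every muscle library). Each point is 1 library, and the red diamonds of heart lie right of all 4 muscle libraries on the left panel and left of them on the right panel.

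Among the other miRNAs above muscle, miR-126-3p was the largest in reads. This miRNA lies within the gene EGFL7 and is a marker of endothelium, the lining of vessels and of the heart chambers. It stood at 248615 CPM in heart, 19186 and 13416 CPM in white muscle, and 31673 and 21616 CPM in red muscle. Heart was 7.85 times the highest muscle library, and the log2 difference was 3.88 ± 0.41 (edgeR, adjusted p = 0.00027), 3.56 ± 0.51 against red and 4.19 ± 0.52 against white muscle. The highest of the other 11 libraries was the male gonad at 80252 CPM. In bulk tissue, more endothelial cells and more miR-126-3p per cell cannot be told apart. The opposite arm, miR-126-5p, went the other way: it stood at 207.7 CPM in heart and 1821 to 7662 CPM in muscle, a log2 difference of −3.65 ± 0.87 (adjusted p = 0.025, and 0.16 without the male white muscle library).

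Of the 12 names of the miR-99, miR-100 and miR-125 families, 2 lay above all 4 muscle libraries, near the 14.7% of all names, 3 below and 7 inside. miR-99a-5p, which in vertebrates is encoded beside let-7c and targets mTOR, stood at 94714 CPM in heart, 13445 and 17467 CPM in white muscle, and 14324 and 17358 CPM in red muscle. The 4 muscle libraries were close together and heart was 5.42 times the highest of them, a log2 difference of 2.83 ± 0.51 (edgeR, adjusted p = 0.0068, and 0.10 without the male white muscle library). Its relative miR-100-5p stood at 186088 CPM in heart, inside a muscle range of 69054 to 218907 CPM. let-7c-5p stood at 4373 CPM in heart and 1212 to 1855 CPM in muscle, and its log2 difference of 1.76 ± 0.60 did not pass (adjusted p = 0.090). Both miR-99a-5p and let-7c-5p were higher in heart than in any other of the 16 libraries.

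The let-7 family, which represses growth genes in differentiated cells, was near muscle as a sum, at 108067 CPM against 73935 to 116066 CPM. Of 23 names compared, heart lay above for 7, below for 6 and inside for 10 (14.7% above and 42.2% below over all names). After TMM factors these were 13 above and 5 below, with 61 names above and 38.9% below over all names. let-7i-5p alone passed: it stood at 1017 CPM in heart and 151 to 275 CPM in muscle, a log2 difference of 2.63 ± 0.66 (edgeR, adjusted p = 0.030). let-7d-5p stood at 3701 CPM against 704 to 1614 CPM and did not pass (adjusted p = 0.052).

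The miR-23, miR-24 and miR-27 families, which are encoded as clusters and are known from endothelium and heart of mammals, summed to 53289 CPM in heart and 16360 to 37547 CPM in muscle. Heart lay above all 4 muscle libraries for 7 of 15 names, below for 2 and inside for 6, against 14.7% above and 42.2% below over all names. miR-27b-3p stood at 16016 CPM in heart and 3523 to 5990 CPM in muscle, and passed at a log2 difference of 2.00 ± 0.56 (edgeR, adjusted p = 0.049, and 0.30 without the male white muscle library). miR-27c-3p (30065 CPM), miR-23a-3p (3832 CPM) and miR-24-3p (1645 CPM) were higher in heart than in any other library of the series, but for each the nearest muscle library came close, and miR-27c-3p reached 28945 CPM in female red muscle.

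The miR-30 family, abundant in cardiac muscle cells of mammals, was split. Heart lay above for 5 of 10 names, below for 1 and inside for 4, with 14.7% and 42.2% of all names above and below. miR-30c-5p stood at 6165 CPM in heart, 807 and 801 CPM in white muscle and 1823 and 2840 CPM in red muscle, a log2 difference of 2.39 ± 0.63 (edgeR, adjusted p = 0.036, and 0.25 without the male white muscle library). miR-30d-5p stood at 2991 CPM in heart, 5348 and 6790 CPM in white muscle and 12735 and 23391 CPM in red muscle. As a sum the family was at 23294 CPM in heart, between white muscle (9993 and 13544 CPM) and red muscle (34667 and 31327 CPM).

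The smooth muscle miRNAs miR-143 and miR-145, which share a transcript and are known from vessel walls, differed by arm. The rarer arm, miR-143-5p, stood at 106.2 CPM in heart, 17.5 and 13.1 CPM in white muscle and 16.6 and 2.43 CPM in red muscle. The common arm, miR-143-3p, stood at 8774 CPM in heart, 8375 and 10753 CPM in white muscle and 50426 and 42450 CPM in red muscle. Heart lay between the 2 white libraries for the common arm and lay above all 4 for the rare one, which passed at 3.52 ± 0.83 (edgeR, adjusted p = 0.025). miR-145-5p stood at 1810 CPM in heart and 203.7 to 630.8 CPM in muscle, a log2 difference of 2.40 ± 0.68 (adjusted p = 0.049), while miR-145-3p stood at 428.6 CPM against 450 to 1159 CPM. Without the male white muscle library miR-143-5p and miR-145-5p gave adjusted p of 0.30 and 0.32.

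Further names above all 4 muscle libraries that passed were miR-731-3p and miR-222a-5p-2. miR-731 is induced by interferon in fish. Its 3p arm stood at 258 CPM in heart and 28.9 to 48.6 CPM in muscle, a log2 difference of 2.97 ± 0.75 (edgeR, adjusted p = 0.030). Other names of its list did not follow: miR-731-5p and miR-462-5p had differences of −1.02 and −1.04 that did not pass. The list summed to 2082 CPM in heart, inside a muscle range of 1636 to 11139 CPM. miR-222a-5p-2 stood at 333 CPM against 24.8 to 141.7 CPM, a difference of 3.05 ± 0.77 (adjusted p = 0.030). The calls of miR-731-3p and miR-222a-5p-2 were both lost with no read minimum and without the male white muscle library.

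Among rarer names, 5 others passed, and they are named here because they passed, after their values were seen. miR-187-3p stood at 57.0 CPM in heart (73 reads) and 0 to 0.521 CPM in muscle. This was 67.3-fold above the highest muscle library, with each muscle library taken at no less than 3 counts. miR-135c-5p, of a family known from brain, stood at 28.9 CPM in heart (37 reads) and 0 to 0.933 CPM in muscle. These 2 names met the minimum of 10 reads only through heart, so they had to lie above muscle. miR-489, known in mouse from resting muscle stem cells, was higher in both arms. miR-489-5p stood at 66.4 CPM in heart and 0 to 1.86 CPM in muscle, and miR-489-3p at 43.7 CPM against 1.41 to 6.60 CPM. The heart level of miR-489-5p was the highest of the 16 libraries, while miR-187-3p was higher in both brains and the male gonad, and miR-135c-5p was lower than in every library but those of muscle and the embryo at 2 days post-fertilization. miR-n437-5p stood at 18.7 CPM against 0.700 to 3.21 CPM.

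Below muscle, the miR-10 family showed the largest gaps. Genes of miR-10 and miR-196 lie within the Hox clusters, whose genes pattern the body along its axis. Of 14 names of the list, 12 were compared and heart lay below all 4 muscle libraries for 10 and above for none, with 5 lower in the test. Over all names 42.2% lay below and 5.60% were lower in the test. Their summed level was 294 CPM in heart and 117382 to 224187 CPM in muscle. The 2 names inside the range were the 3p arms miR-196a-3p and miR-196a-3p-2, both at 0 reads in heart and in male white muscle. Of the 14 names, 10 had no read in heart. Those among the 12 compared, and miR-10d-5p with 3 reads, met the read minimum only through muscle. The count below all 4 was thus largely fixed for these names. The fitted median log2 fold change of the 12 was −8.16, and −2.96 with every library held at no less than 3 reads, while over all names these medians were −0.82 and 0.07.

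miR-10b-5p stood at 177 CPM in heart, 95232 and 194601 CPM in white muscle, and 183764 and 187974 CPM in red muscle. The lowest muscle library was 537 times heart, and the log2 difference was −9.63 ± 1.04 (edgeR, adjusted p = 0.00027). miR-10c-5p stood at 86.7 CPM in heart and 18685 to 33305 CPM in muscle, a difference of −7.99 ± 0.96 (adjusted p = 0.00043). miR-10d-5p rested on 3 reads in heart (2.34 CPM) and stood at 1408 to 5114 CPM in muscle, 601 times heart at the least (205.7 to 2915 by counting error of the heart library). Both red libraries lay above both white ones for miR-10c-5p and miR-10d-5p, while for miR-10b-5p the muscle types overlapped. The heart level of miR-10b-5p was also the lowest of the 16 libraries, next to the eye at 460 CPM. miR-10a-5p was less even: it stood at 28.1 CPM in heart, 1945 and 1556 CPM in white muscle and 92.5 and 1265 CPM in red muscle, and did not pass (adjusted p = 0.081). miR-196a-5p and miR-10b-3p had 0 reads in heart and passed. They lay 4.48-fold and 4.30-fold below the lowest muscle library with heart set to 3 counts, and less by the wider two-sided limit.

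Other abundant names lay below all 4 muscle libraries. miR-181a-5p, known from lymphocytes and from differentiating muscle cells, stood at 1128 CPM in heart, 11887 and 8202 CPM in white muscle and 30053 and 55213 CPM in red muscle, a log2 difference of −3.97 ± 0.86 (edgeR, adjusted p = 0.019). miR-2184-5p stood at 52.3 CPM in heart and 1087 to 10797 CPM in muscle (−5.63 ± 1.35, adjusted p = 0.025). miR-22b-3p stood at 13.3 CPM against 190 to 670 CPM (−4.61 ± 1.07, adjusted p = 0.024). In the miR-130 and miR-301 list, which also holds miR-454, heart lay below for 5 of 10 names, near the 42.2% of all names, and above for none. In the test 2 of the 10 were lower, against 5.60% of all names. They were miR-130c-3p (6.25 CPM against 105.9 to 640 CPM) and miR-130b-3p (3.90 CPM against 47.8 to 271 CPM). Both had fewer than 10 reads in heart and met the read minimum only through muscle, so their lower direction was largely fixed. All 5 calls were lost without the male white muscle library.

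**Figure D4:**
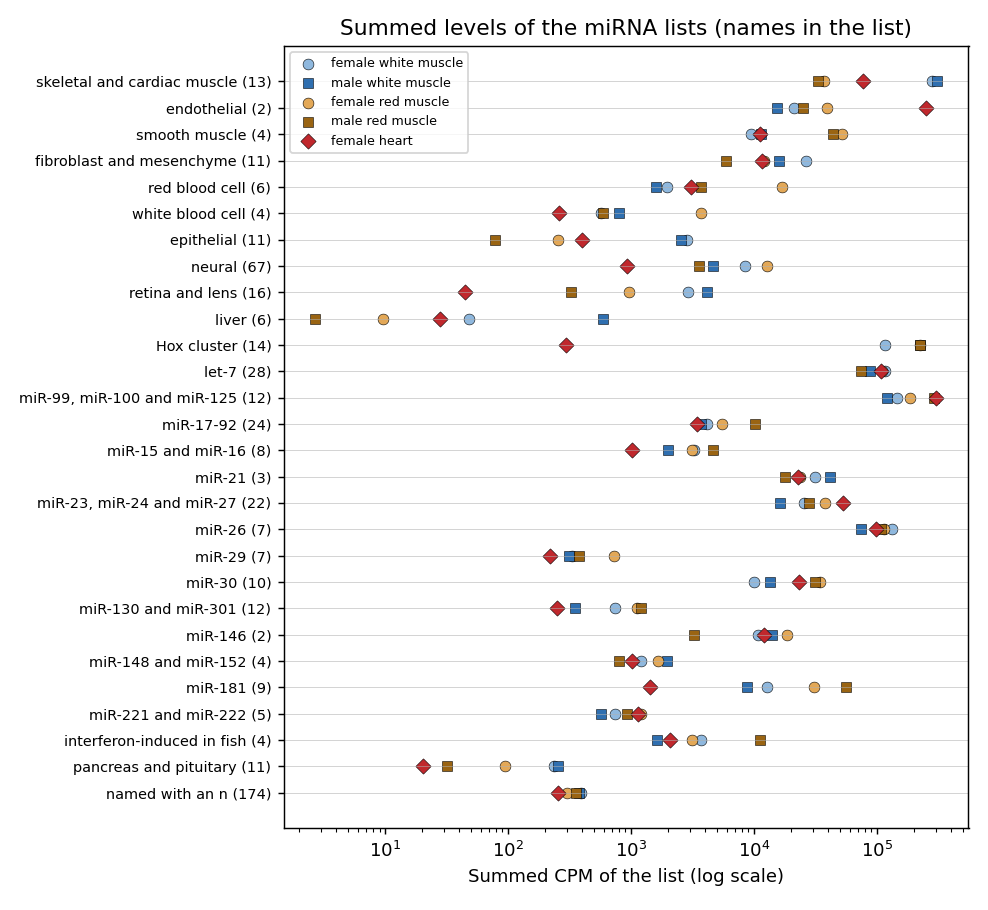
Summed level of each miRNA list (CPM, log scale) in each of the 5 libraries, 1 point per library, with the number of names in the list in brackets. Heart lies right of all 4 muscle libraries for 3 lists (endothelial, miR-99 to miR-125 and miR-23 to miR-27) and left of them for 11 (Hox cluster, retina and lens, neural, white blood cell, pancreas and pituitary, miR-15 and miR-16, miR-17-92, miR-29, miR-130 and miR-301, miR-181 and the n names).

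Lists for other cells that may come along in a dissection moved in both directions, and their part in the results above was not tested. Endothelial miR-126 is given above. The 4 white blood cell names summed to 260 CPM in heart and 571 to 3705 CPM in muscle, and the red blood cell names, led by miR-451-5p-2 and miR-144, to 3054 CPM in heart and 1597 to 16962 CPM in muscle. Within muscle the female red library held the highest sums of both. The fibroblast names of miR-199 and miR-214 summed to 11705 CPM in heart, inside a muscle range of 5880 to 26395 CPM, with 4 of 6 names below all 4 muscle libraries (42.2% over all names) and none that passed.

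Names known from epithelia were present in the muscle libraries, most of all in white muscle. miR-205-5p, known from skin and other stratified epithelia, stood at 0.781 CPM in heart (1 read), 2062 and 1759 CPM in white muscle and 182.8 and 56.2 CPM in red muscle. The log2 difference was −8.88 ± 1.45 (edgeR, adjusted p = 0.0039, and 0.079 without the male white muscle library). As counted, on 1 read in heart, the lowest muscle library was 72.0 times heart (12.9 to 2842 by counting error of the heart library). With heart set to 3 counts the ratio was smaller. miR-200a-3p, of the same list, did not follow: it stood at 294 CPM in heart, 531 and 540 CPM in white muscle and 11.5 and 2.52 CPM in red muscle. Against red muscle miR-200a-3p was higher by 5.87 ± 0.99 (edgeR, adjusted p = 0.0056) and miR-200b-3p by 4.60 ± 0.91 (adjusted p = 0.013). Of the 9 names of this list compared, heart lay above all 4 muscle libraries for 1, below for 3 and inside for 5. Over all names 14.7% lay above and 42.2% below. The whole list summed to 397 CPM in heart, 2836 and 2550 CPM in white muscle and 255 and 78.3 CPM in red muscle.

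The retina and lens list lay below muscle for 6 of 7 names (42.2% over all names) and summed to 44.5 CPM in heart against 322 to 4169 CPM. The 3 that passed, all lower in heart, were miR-184-3p, miR-184-3p-2 and miR-182-5p-2, against 5.60% of all names lower in the test. All 3 had fewer than 10 reads in heart and met the read minimum only through muscle. Their lower direction was thus largely fixed. miR-184-3p, known from lens and cornea, stood at 2.73 CPM in heart, 1373 and 1786 CPM in white muscle and 43.0 and 33.7 CPM in red muscle. miR-182-5p-2 had 0 reads in heart, 5.45-fold below the lowest muscle library with heart set to 3 counts. The neural list lay below for 17 of 32 names and above for 3, not far from the 42.2% and 14.7% of all names, and summed to 929 CPM against 3603 to 12860 CPM. In the test 1 of the 32 was lower and 1 was higher, miR-135c-5p, which met the read minimum only through heart. In each muscle library most of the sum came from 1 name of this list. Its leading name, miR-338-3p, stood at 379 CPM in heart and 2406 to 12080 CPM in muscle, a log2 difference of −3.71 ± 0.98 (edgeR, adjusted p = 0.036, and 0.20 without the male white muscle library). miR-217-5p of the pancreas list had 1 read in heart (0.781 CPM), with 13.4 to 151.7 CPM in muscle, and passed (adjusted p = 0.030).

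Whether heart was nearer to red or to white muscle depended on the miRNA. By the mean of log2(CPM + 1) of each muscle type, heart was nearer to red muscle for 45.1% of the 339 names and nearer to white muscle for the other 186. Where the red and white libraries did not overlap (166 names), the counts were 88 and 78. Of the 94 names higher in red muscle, heart was nearer to white for 60. Of the 72 names lower in red muscle, heart was nearer to red for 54. In 114 of the 166, heart was therefore nearer to the type with the lower level. Among the 166, heart lay below every muscle library for 72 names, which makes the lower type the nearer one by position alone. It lay above every muscle library for 24, which makes the higher type the nearer one. The nearer type was free only for the 70 names inside the muscle range. The count of 114 thus largely restates how often heart lay below muscle, and is no separate result on nearness. In the muscle list, 9 of 12 names were nearer to red muscle. Heart lay below all 4 muscle libraries for 6 of the 12, where the type with the lower level has to be the nearer one. Among these were miR-206-3p, miR-133a-3p and miR-133b-3p, for which red was the lower type, so the count does not show a likeness to red muscle for them. For the 2 names above all 4, miR-499-5p and miR-736-5p, red was the higher type and had to be the nearer one. Only the 4 names inside the muscle range were free.

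Over all names no muscle library stood out as nearest. The median absolute log2 difference from heart was 1.27 and 1.19 for female and male white muscle and 1.33 and 1.27 for female and male red muscle. Among the muscle libraries it ran from 0.54, between the white libraries, to 1.19, between male white and male red muscle. Spearman's rho of heart with each muscle library across the 339 names lay between 0.768 and 0.798, as a description, since names are not independent and the libraries differ in depth. By the same difference, female brain (0.97), male gonad (1.08) and male brain (1.14) lay nearer to heart than any muscle library did. By Spearman's rho the order was not the same, with 0.683 and 0.677 for female and male brain and 0.786 for male gonad. Both measures rest on names chosen in heart and muscle and on libraries of unequal depth.

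In the test, 11 names were higher (3.24%) and 12 lower (3.54%) in heart than in red muscle, and 13 were higher (3.83%) and 20 lower (5.90%) than in white muscle. Without the male white muscle library these became 2, 4, 0 and 3. Without the male red muscle library the counts against red muscle became 0 and 4. Both counts of 0 are from edgeR, and in those fits 12 names were higher than white muscle and 27 higher than red muscle at an unadjusted p under 0.05.

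**Figure D5:**
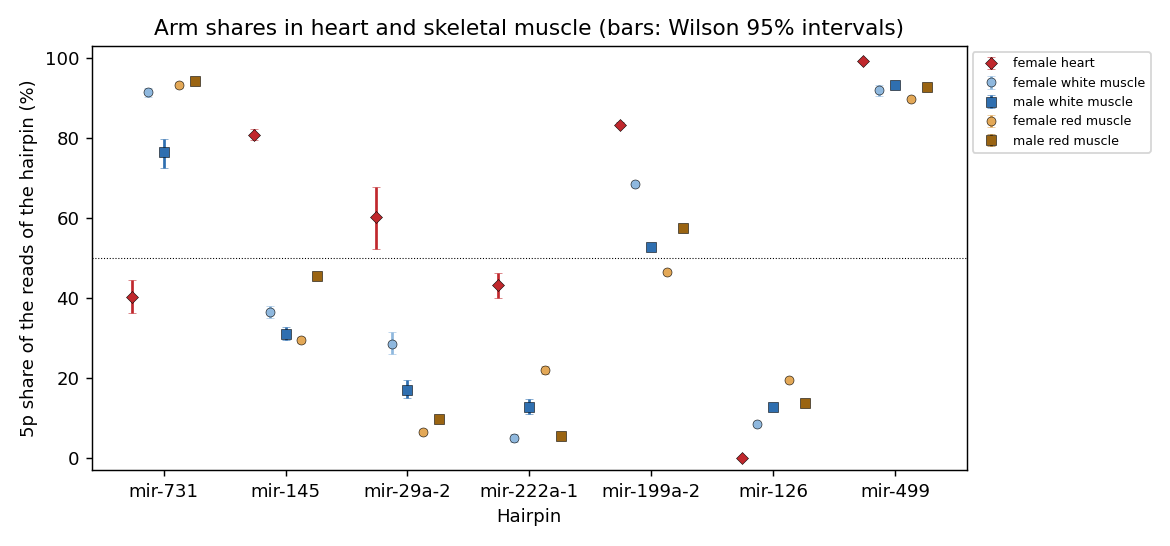
Share of the reads of a hairpin that came from its 5p arm (percent, vertical axis) for 7 hairpins in each of the 5 libraries, with Wilson 95% intervals that cover counting error only. In heart mir-731 falls below and mir-145 and mir-29a-2 rise above the 50% line, opposite to all 4 muscle libraries.

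The arms of a hairpin come from 1 transcript, so their ratio does not depend on its level where each arm matches that locus alone. In whole-number counts a read adds 1 at all loci it fits, so the share of a hairpin with copies can mix their reads. Hairpins were followed on whole-number counts where the 2 arms together reached 50 reads in every one of the 5 libraries. The heart 5p share lay outside all 4 muscle libraries, with intervals that overlapped none of theirs, for 35 of them (25.9% of those followed), above for 21 and below for 14. The gap reached at least 10 percentage points in 11. Copies of a hairpin share reads, and with hairpins that share a mature name counted once these were 24 and 7. The same arm was dominant in heart and in all 4 muscle libraries for 90.4% of the hairpins.

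In 3 hairpins the dominant arm of heart was opposite to that of every muscle library. For mir-731 the 5p share was 40.4% in heart (Wilson 95% interval 36.4 to 44.5) and 91.4%, 76.4%, 93.2% and 94.3% in female white, male white, female red and male red muscle. For mir-145 it was 80.9% in heart (79.4 to 82.3) and 36.5%, 31.1%, 29.6% and 45.5% in the same order. For mir-29a-2 it was 60.3% in heart (52.3 to 67.7), on 151 reads, and 28.7%, 17.2%, 6.61% and 9.75%, though reads of its arms are shared with other loci. Over the other 11 libraries the mir-731 share ran from 25.9% to 89.8% and the mir-145 share from 1.98% to 93.5%, so both hairpins vary widely by tissue.

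The next largest gaps were found at mir-222a-1 and the mir-199a copies. The 5p share of mir-222a-1 was 43.2% in heart and 4.99% to 22.0% in muscle. That of mir-199a-2 was 83.3% in heart and 46.4% to 68.5% in muscle, and mir-199a-1 gave the same values since the copies share their reads. For mir-126, the 5p share was 0.0835% in heart (0.0740 to 0.0941) and 8.67%, 12.7%, 19.5% and 13.8% in muscle. In the other 11 libraries it ran from 0.158% to 6.03%, so heart was the lowest of the 16 and the 4 muscle libraries the highest. For mir-499, the 5p share was 99.2% in heart and 89.8% to 93.3% in muscle.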

How the data were processed

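Small RNA was extracted with Trizol from frozen tissue, prepared with the TruSeq small RNA kit and sequenced on the Illumina GAIIx. Per the file headers, the authors deposited, for each arm at each locus, a raw count (whole number, a read adding 1 at all loci it fits) and a weight, an estimated count where reads with several loci are split among them. Neither is normalized. The paper names PaTMan and oreNil2 for precursor positions and the submitters' processing notes name DESeq, while the counting tool is not given in the sources used here. Of 736 lines, 2 without a mature name held 0 reads and were dropped. Tissue came from the labels, and sex from the first letter of the titles, the file headers and the paper's tissue list.

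Estimated counts were summed per mature name and given per 1000000 of their total (CPM), with exact Poisson 95% intervals. Libraries under 3 reads were set to 3 reads for ratios between single libraries, unless a ratio is given as counted. Nearness used a pseudocount of 1 CPM. Names with at least 10 reads in 1 of the 5 libraries were tested on summed estimated counts, rounded to whole numbers, in R 4.3.3 with edgeR 4.0.16 (with limma 3.58.1), TMM factors, glmQLFit and glmQLFTest, a term of 3 tissue levels and Benjamini-Hochberg adjustment over all names tested. The SE is the absolute log2 fold change divided by the square root of F. The code was tested on simulated data. DESeq2 1.42.0 was an alternative, and no DESeq2 or edgeR value was taken from the authors. Python 3.11.15 (numpy 2.4.6, scipy 1.17.1, pandas 2.3.3, matplotlib 3.10.9) served for the rest.

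Named miRNAs are the markers miR-499-5p, miR-126-3p and miR-206-3p, the 12 largest ratios in each direction to the nearest muscle library at 100 CPM or more, the 5 most abundant names of each library, up to 4 names per list, and the 6 hairpins with the largest gap in 5p share. The members and lists were chosen with earlier results of these data known. The lists rest on textbook knowledge, and each takes both arms and all copies of its families. Further lists moved as follows, against 14.7% above and 42.2% below over all names. For the liver (4 compared), gonad (1), miR-21 (3) and miR-146 (2) lists heart lay inside the muscle range for every name. Heart lay below for 6 of 18 miR-17-92 names and above for 2, below for 4 of 7 miR-15 and miR-16 names, below for 5 of 7 miR-181 names, below for 4 of 6 pancreas and pituitary names, and below for 24 of 51 names with an n in place of a family number and above for 3. It lay above for 1 and below for 2 of 7 miR-26 names, above for 2 and below for 2 of 5 miR-29 names, below for 1 of 4 miR-148 and miR-152 names, above for 1 of 4 miR-221 and miR-222 names and above for 1 of 3 interferon-induced names. The early embryo list has no name in the files.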

Additional observations from a re-analysis of the deposited data

Results flagged for a closer look

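For the named miRNAs listed here the difference of heart from red muscle differed from that from white muscle. This difference of the contrasts is the difference between red and white muscle itself, fitted with edgeR and adjusted over all names tested, and it does not use the heart level. Higher in red than in white muscle were miR-499-5p (log2 fold change 3.45, adjusted p = 0.0096), miR-143-3p (2.17, adjusted p = 0.038), miR-736-3p (4.65, adjusted p = 0.033), miR-736-5p (5.67, adjusted p = 0.047) and miR-196a-5p (3.40, adjusted p = 0.041). Lower in red muscle were miR-206-3p (−4.31, adjusted p = 0.0020), miR-1-3p (−7.90, adjusted p = 0.0015), miR-26a-3p (−3.97, adjusted p = 0.016), miR-205-5p (−4.22, adjusted p = 0.012), miR-200a-3p (−6.52, adjusted p = 0.0032), miR-184-3p (−5.48, adjusted p = 0.0032), miR-184-3p-2 (−6.44, adjusted p = 0.0029) and miR-192-5p (−5.99, adjusted p = 0.041). For miR-192-5p the male white muscle library stood at 484 CPM and the female one at 18.4 CPM, against 8.01 and 2.26 CPM in red muscle and 3.12 CPM in heart. These were looked for among the named miRNAs alone, many of which were named by their levels in these data. The share over all names tested is not given, so the list does not show that the split is particular to them. Other names passed too, among them miR-122-5p (−6.25, edgeR, adjusted p = 0.010), miR-200b-3p (−4.25, adjusted p = 0.014) and miR-196b-5p (4.51, adjusted p = 0.019). Fits with 1 library left out are not given for this contrast.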

How the results depend on the processing

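No called miRNA named in the text changed direction under the alternatives run. Against skeletal muscle, the 17 higher names became 7 with no read minimum and the 19 lower names became 31 with library totals alone, 39 with DESeq2 and 10 with no read minimum. Leaving out 1 muscle library gave 4 to 27 higher and 4 to 41 lower names. The median log2 fold change of all names was −0.82, −1.12 with library totals alone, −0.49 with DESeq2, −1.36 with no read minimum and −0.51 with a minimum of 10 CPM. Of the 36 calls, 19 were lost with no read minimum, 2 with library totals alone (miR-145-5p and miR-27b-3p), 7 without female white muscle, 28 without male white muscle, 8 without male red muscle and none with DESeq2, whole-number counts, a minimum of 10 CPM or without female red muscle.

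With sex as a replicate block, 7 names were higher and 13 lower than in muscle, and 16 of the 36 calls were lost. The labels do not pair the libraries beyond sex. The female minus male differences of white and red muscle had a correlation of −0.37 across 339 names.

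The alternatives for heart against red and against white muscle were chosen after seeing the data. The 11 names higher than red muscle became 27 with DESeq2, 6 with no read minimum and 18 with whole-number counts (0 to 20 with 1 library left out), and the 12 lower names 34 with library totals alone, 40 with DESeq2 and 26 with whole-number counts (4 to 45). The 13 names higher than white muscle became 23 with DESeq2, 3 with no read minimum, 20 with a minimum of 10 CPM and 20 with whole-number counts (0 to 24), and the 20 lower names 31 with library totals alone, 40 with DESeq2, 9 with no read minimum and 34 with whole-number counts (3 to 46). Both counts of 0 are from edgeR, with 27 names higher than red and 12 higher than white muscle at an unadjusted p under 0.05 in those fits.

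With at least 100 CPM in 1 library, heart lay above for 23 and below for 51 names and nearer to red muscle for 50.8%. With 1 library left out these were 54 to 64 above and 45.3% to 49.6% nearer to red, and 35 to 42 hairpins lay outside. After TMM factors heart lay above for 61 names and below for 38.9%. The direction changed for 3 named differences that passed in no fit. For miR-26a-5p against muscle the log2 fold change of 0.20 became −0.087 with library totals alone and ran from −0.19 to 0.34 with 1 library left out, for miR-451-5p-2 against muscle it went from −0.18 to 0.021 with DESeq2, and for miR-499-3p against red muscle from −0.25 to a range of −0.77 to 0.26 with 1 library left out. The depth of heart limits the lower side, where 178 of 339 names had fewer than 10 reads in heart.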

Other observations

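Heart had the highest level of the 16 libraries for 9 of the 339 names: miR-126-3p, miR-99a-5p, miR-499-5p, miR-27c-3p, let-7c-5p, miR-23a-3p, miR-24-3p, miR-489-5p and miR-736-5p. Among the other 11 libraries, those with the highest levels of these names were the embryo at 5 days post-fertilization for miR-499-5p (1391 CPM), miR-27c-3p (8609 CPM), miR-489-5p (25.5 CPM) and miR-736-5p (1.90 CPM), the female brain for miR-99a-5p (60200 CPM) and let-7c-5p (3733 CPM), the male gonad for miR-126-3p (80252 CPM) and miR-23a-3p (2520 CPM), and the female gonad for miR-24-3p (1353 CPM). For 18 names heart was the lowest of the 16 and above 0 reads.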
